A study of Mus musculus and Homo sapiens with 8 samples.

Results

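The cytochrome P450 genes of families 2, 3 and 4 were taken from a table of RNA-seq expression values as the genes whose symbol begins with Cyp2, Cyp3 or Cyp4 followed by a lower-case letter and a digit. There were 24 such genes of 13359 in all, in 11 subfamilies: 13 in family 2, 4 in family 3 and 7 in family 4. RNA came from crypts of the small intestine of untreated C57BL/6 mice aged 2 months. The mice labelled knockout carried the genotype APCmin+; Zmynd8IEC-/-, which is the Apc Min mutation together with loss of Zmynd8 in the intestinal epithelium, and the control mice carried APCmin+ alone, so both groups have the Apc mutation that leads to intestinal adenomas. There were 2 libraries in each group, and each library was a pool of RNA from 3 mice. The labels do not name the Cre driver, and nothing in them says whether the pools of a group came from separate litters or days, so each p-value reflects only how far these pools differ, which may be technical.

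Cytochromes P450 are heme proteins that insert 1 oxygen atom from molecular oxygen into a substrate, with electrons supplied by P450 reductase and cytochrome b5. Enzymes of families 2 and 3 oxidise drugs, plant compounds, steroids and bile acids, and some of family 2 also form epoxides of arachidonic acid. Those of family 4 hydroxylate the end of fatty acid chains and of eicosanoids such as leukotriene B4. In the intestine they are mainly found in enterocytes, the absorptive cells, where the nuclear receptors PXR, CAR and PPAR alpha raise the transcription of many of them.

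Library totals, fitted from the expression values, were 46551218 and 47990019 reads in the libraries labelled knockout and 44718091 and 48778712 in the Apc Min controls. Zmynd8 had 7.30 and 7.65 FPKM (reads scaled to gene length and library size) in the libraries labelled knockout, against 6.94 and 4.73 FPKM in the controls, so the targeted gene was no lower than in the controls, against the label. These are values over the whole gene, and the deleted part is not stated, so every direction here rests on the labels alone. The median log2 fold change of the 12948 genes tested was -0.15, and median-ratio scaling of the libraries moved it by 0.15, so fold changes are also given relative to all genes where that bears on them.

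P450 genes of all 3 families stood higher in the libraries labelled knockout, with the largest fold changes in Cyp2b10, Cyp3a11, Cyp2c66 and Cyp3a25. Cyp3a11, Cyp3a13 and Cyp2d26 passed the test and rose, and no member fell. The test was limma on log2(FPKM + 1) over all genes, at an adjusted p under 0.05. It called 3 of the 24 members higher (12.5%), where 77 of all 12948 genes were called higher (0.595%) and 17 lower (0.131%); after median-ratio scaling 60 genes were called higher and 4 lower. At an unadjusted p under 0.05, 15 members were higher and 0 lower, against 7.49% and 19.1% of all genes. Both libraries labelled knockout lay above both controls in 18 members (75.0%), against 14.9% of all genes tested, and below both in 1 member, against 48.5%. The median log2 fold change over the 24 members was 0.90, or 1.06 relative to all genes.

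The counts describe the genes that the table lists and are no support for a change of the families as a whole. All 24 members passed the filter of at least 1 FPKM in at least 2 libraries. However, 4 of them (Cyp2c44, Cyp2c66, Cyp2j9 and Cyp3a44) averaged under 1 FPKM in the controls, and Cyp2e1 averaged under 1 FPKM in labelled knockout libraries, and since every listed gene averages at least 1 FPKM in 1 of the groups, each of these 5 was listed through its higher group alone. In RNA from whole crypts, more cells of a kind and more RNA per cell cannot be told apart. These calls were near the threshold. Without control replicate 2, 9 members were called higher and 0 lower, and of the 12594 genes then tested 230 were called higher and 386 lower. With 1 library labelled knockout left out, 0 genes of the whole table were called, and Cyp3a11 had limma adjusted p = 0.127 without replicate 1 and 0.256 without replicate 2.

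**Figure D1:**
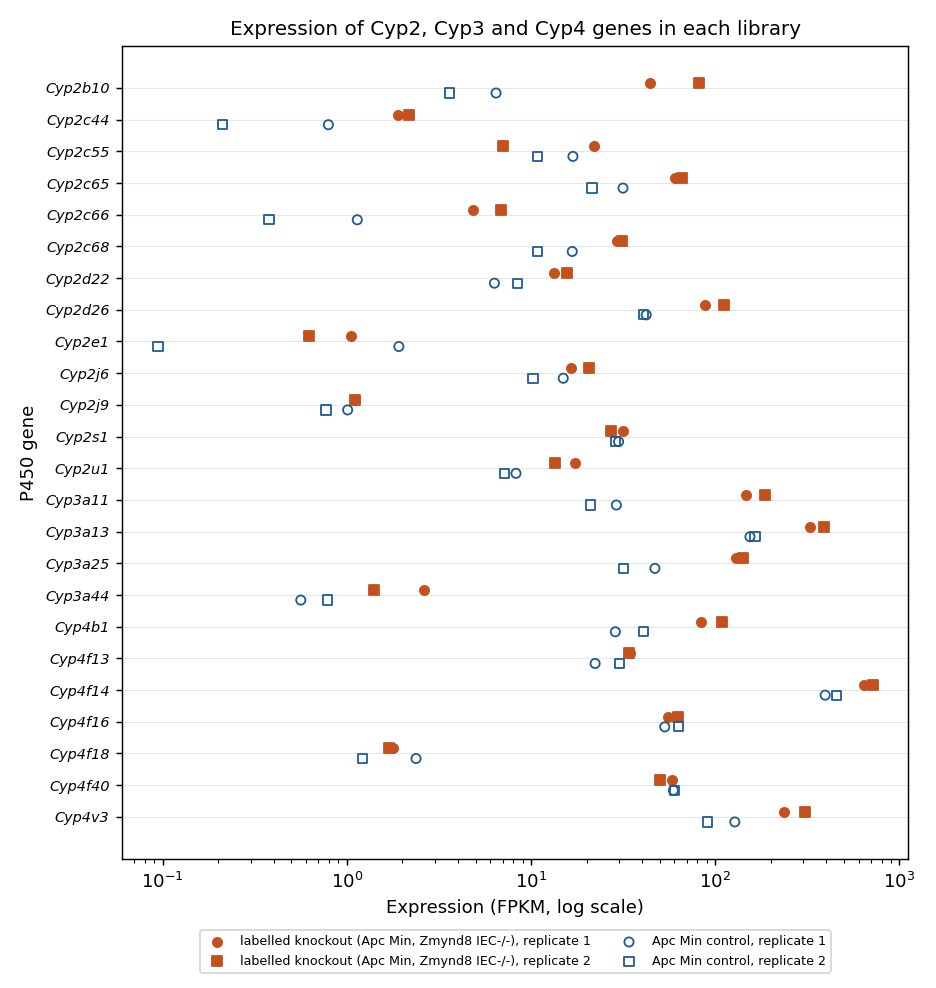
Expression of each of the 24 genes (rows) in FPKM on a log axis, with 1 point per library. Filled points are the 2 libraries labelled knockout and open points the 2 Apc Min controls; in 18 genes both filled points lie to the right of both open ones, and in Cyp2c55, Cyp2e1, Cyp2s1, Cyp4f16 and Cyp4f18 they are mixed.

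Family 3 was represented by 4 genes of the Cyp3a subfamily. In all 4 both libraries labelled knockout lay above both controls, against 14.9% of all genes tested. Cyp3a11, the main drug-metabolising Cyp3a enzyme of the mouse and a standard PXR target (chromosome 5, 145854607 to 145879854, minus strand, mm10), measured 147 and 186 FPKM in labelled knockout libraries, against 29.1 and 20.9 FPKM in the controls. The groups were far apart, and every pairing of a library labelled knockout with a control gave a ratio between 5.05 and 8.91. Its log2 fold change was 2.70 (SE 0.21, limma adjusted p = 0.041), which ranked 13 among all genes tested. Cyp3a13, an intestinal Cyp3a gene and the second most abundant P450 gene here, stood at 328 and 388 FPKM in labelled knockout libraries, against 154 and 164 FPKM in the controls. Its values within a group differed by a factor of 1.18 in the libraries labelled knockout and 1.06 in the controls, well under the 2.25-fold ratio of the means (log2 fold change 1.16, SE 0.13, adjusted p = 0.046). Cyp3a13 gave an adjusted p of 0.060 with median-ratio scaling, 0.051 with quantile normalization and 0.066 without control replicate 1.

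Cyp3a25, a liver and gut Cyp3a gene, had 129 and 141 FPKM in labelled knockout libraries, against 47.0 and 31.7 FPKM in the controls. Its log2 fold change of 1.78 (SE 0.21) missed the threshold at adjusted p = 0.053 and passed it after median-ratio scaling (adjusted p = 0.048) and with voom on the reads recovered from the values (adjusted p = 0.040). Cyp3a44 was scarce, at 2.64 and 1.4 FPKM in labelled knockout libraries, against 0.562 and 0.783 FPKM in the controls, which rested on at least 254 and 139 reads against at least 52 and 79. Its groups did not overlap, and its log2 fold change was 0.82 (adjusted p = 0.13). Cyp3a44, Cyp3a11 and Cyp3a25 are neighbours, with gaps of 48.7 kb and 97.3 kb and no other listed gene between them, while Cyp3a13 lies 7852.4 kb away on the same chromosome. Genes of the Cyp3a cluster are close copies of one another, as are those of the Cyp2c, Cyp2d and Cyp4f clusters, and no source used here gives the counting tool, so reads could have been split or shared among them.

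The 250 bases before the start are shown for Cyp3a11 and Cyp3a13, because these genes passed the test. For Cyp2d26, which also passed, most of the RefSeq window lies inside the gene as the table places it and is not printed. Capitals mark matches, on either strand, to AGGTCA and AGTTCA (letters that nuclear receptors recognise), CAAAGTCCA (a form of the HNF4 alpha site), AGATAA, which factors of the GATA family recognise, and TATAAA, the box of many core promoters. Sequences are RefSeq's, build GRCm38.p6, written 5′ to 3′ on the gene's strand, for Cyp3a11 at chr5:145879855-145880104 (minus) and for Cyp3a13 at chr5:137921620-137921869 (minus).
Cyp3a11: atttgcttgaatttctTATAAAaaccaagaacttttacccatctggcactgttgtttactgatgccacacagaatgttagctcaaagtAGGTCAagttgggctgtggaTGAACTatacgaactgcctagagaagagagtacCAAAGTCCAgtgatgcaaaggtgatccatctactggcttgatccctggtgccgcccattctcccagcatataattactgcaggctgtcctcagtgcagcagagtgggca
Cyp3a13: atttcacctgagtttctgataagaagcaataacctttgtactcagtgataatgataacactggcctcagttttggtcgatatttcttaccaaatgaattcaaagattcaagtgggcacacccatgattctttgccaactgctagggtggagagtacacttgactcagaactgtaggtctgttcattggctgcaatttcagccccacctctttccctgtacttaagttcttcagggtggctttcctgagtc
The Cyp3a11 window held 4 of the 5 motifs, the Cyp2d26 window TATAAA read on the opposite strand, 31 bases before the RefSeq start, and the Cyp3a13 window none of them. A match is a run of letters and does not show that a factor binds there.

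Family 2 held the largest fold change of any member. Cyp2b10, the classical CAR target that phenobarbital induces (chromosome 7, 25897658 to 25926624, plus strand), measured 44.2 and 81.1 FPKM in labelled knockout libraries, against 6.45 and 3.61 FPKM in the controls. The ratio ran from 6.85 to 22.5 over the 4 pairings, and the libraries differed by a factor of 1.83 within the labelled knockout group and 1.79 within the controls. The log2 fold change was 3.38 (95% interval 2.17 to 4.58) and ranked 3 among all genes tested, but with an SE of 0.42 it missed the threshold (adjusted p = 0.076). Cyp2s1, a P450 of epithelial tissues, is its neighbour across a gap of 81.1 kb with no listed gene between. Cyp2s1 stood at 31.5 and 27.2 FPKM in labelled knockout libraries, against 29.9 and 28.8 FPKM in the controls, and the groups overlapped. Its log2 fold change was 0.00 (95% interval -0.28 to 0.28), with 0.17 after median-ratio scaling.

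Of the 5 Cyp2c genes, all on chromosome 19, 4 had both libraries labelled knockout above both controls, against 14.9% of all genes tested. None of the 5 passed the threshold. Cyp2c65, an intestinal Cyp2c gene, had 60.3 and 66.3 FPKM in labelled knockout libraries, against 31.6 and 21.4 FPKM in the controls (log2 fold change 1.25, SE 0.20, adjusted p = 0.076). Cyp2c66, its neighbour across 20.0 kb, measured 4.85 and 6.88 FPKM in labelled knockout libraries, against 1.14 and 0.377 FPKM in the controls. Its mean in the libraries labelled knockout was 7.74 times that of the controls, which the added 1 FPKM reduces to a log2 fold change of 1.98 (SE 0.28, adjusted p = 0.068). Cyp2c68 stood at 29.2 and 31.2 FPKM in labelled knockout libraries, against 16.7 and 10.9 FPKM in the controls (1.10, adjusted p = 0.094).

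Cyp2c55, whose mouse enzyme makes hydroxylated arachidonic acid, lies 18.3 kb from Cyp2c65 and did not share this pattern of values. It had 22.04 and 7.01 FPKM in labelled knockout libraries, against 16.9 and 10.8 FPKM in the controls, so the libraries labelled knockout held both the highest and the lowest value. Its log2 fold change was -0.10 with a 95% interval from -2.02 to 1.83, and the sign turned to 0.06 with median-ratio scaling and to 0.03 with quantile normalization. Without replicate 2 of the libraries labelled knockout it was 0.67, and without replicate 1 it was -0.86. Cyp2c44, an arachidonic acid epoxygenase 4263.9 kb from Cyp2c68 with 42 listed genes between, measured 1.89 and 2.18 FPKM in labelled knockout libraries, against 0.793 and 0.212 FPKM in the controls. It rested on at least 196 and 233 reads against 79 and 23, and its log2 fold change was 1.04 (adjusted p = 0.098).

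The upstream windows of Cyp2c65 (chr19:39060756-39061005, plus strand) and Cyp2c68 (chr19:39741102-39741351, minus strand) are shown because they are the other members that hold CAAAGTCCA, a choice made after the matches were seen. Capitals mark the same motifs as above.
Cyp2c65: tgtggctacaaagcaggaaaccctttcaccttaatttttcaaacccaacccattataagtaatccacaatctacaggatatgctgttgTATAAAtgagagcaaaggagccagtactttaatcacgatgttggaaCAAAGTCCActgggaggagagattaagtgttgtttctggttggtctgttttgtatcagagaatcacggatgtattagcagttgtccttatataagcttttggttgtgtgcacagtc
Cyp2c68: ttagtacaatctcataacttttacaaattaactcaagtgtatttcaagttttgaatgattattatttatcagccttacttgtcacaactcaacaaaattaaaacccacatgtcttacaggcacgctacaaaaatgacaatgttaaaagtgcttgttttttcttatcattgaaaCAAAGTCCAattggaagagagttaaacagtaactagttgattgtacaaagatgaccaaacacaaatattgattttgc
The 9 bases lay 116 bases before the start in Cyp2c65, 77 in Cyp2c68 and 109 in Cyp3a11. Promoter sequences were matched for 21 of the 24 genes by gene ID, in 26 windows. CAAAGTCCA was in 3 of these windows, against 0.384% of the 32851 windows of all genes. TATAAA was in 7 of the 26, against 12.4% of all windows, and AGATAA in 5, against 9.99%. AGGTCA was in 4, against 14.0%, and AGTTCA in 3, against 11.8%, both near the share of all windows. The counts include the Cyp2d26 window (TATAAA) and the Cyp2j9 window (AGATAA), which lie mostly inside the listed gene positions. AGGTCA was found in Cyp3a11, Cyp3a25 and Cyp3a44 and in no other member, and the pair of Cyp3a25 windows are shifted copies of each other. The pair of Cyp4f40 windows overlap too, and their AGATAA matches are the same site, so AGATAA was in 4 genes.

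Both Cyp2d genes stood higher in the libraries labelled knockout. Cyp2d26 (chromosome 15, 82790107 to 82794452, minus strand) reached 88.2 and 111 FPKM in labelled knockout libraries, against 42.2 and 40.6 FPKM in the controls. The libraries labelled knockout differed by a factor of 1.26 and the controls by 1.04, against a 2.41-fold ratio of means (log2 fold change 1.24, SE 0.14, limma adjusted p = 0.046). As with Cyp3a13, other scalings ended the call (adjusted p = 0.057 with median-ratio scaling, 0.051 with quantile normalization), as did leaving out control replicate 1 (0.071). Without replicate 1 of the libraries labelled knockout the values were 0.15 for Cyp2d26 and 0.18 for Cyp3a13, and without replicate 2 they were 0.33 and 0.38. Cyp2d22, often compared with human CYP2D6, had 13.3 and 15.8 FPKM in labelled knockout libraries, against 6.32 and 8.44 FPKM in the controls (0.90, adjusted p = 0.082).

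The remaining family 2 genes were mixed. Cyp2u1, a fatty acid hydroxylase, measured 17.4 and 13.6 FPKM in labelled knockout libraries, against 8.28 and 7.18 FPKM in the controls (log2 fold change 0.91, adjusted p = 0.076). Cyp2j6, a P450 of arachidonic acid metabolism expressed in the gut, stood at 16.6 and 20.7 FPKM in labelled knockout libraries, against 14.9 and 10.3 FPKM in the controls (0.54, adjusted p = 0.19). The groups of Cyp2j6 were just apart, with a lowest ratio of 1.11. Cyp2j9, across a gap of 4.1 kb, had 1.10 and 1.11 FPKM in labelled knockout libraries, against 1.01 and 0.770 FPKM in the controls (0.16, 95% interval -0.21 to 0.53).

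Cyp2e1, the ethanol-oxidising P450 of hepatocytes, measured 1.05 and 0.623 FPKM in labelled knockout libraries, against 1.91 and 0.0943 FPKM in the controls, and the controls held both extremes. Its log2 fold change was 0.03 (95% interval -1.50 to 1.56), it rested on 8 reads or a multiple of them in control replicate 2, and it was -0.68 without that library. The hepatocyte gene Alb stood at 0.0521 and 0.0303 FPKM in labelled knockout libraries, against 11.7 and 0.189 FPKM in the controls. Alb was thus high in the control library where Cyp2e1 was highest. Ttr, the other hepatocyte marker listed, showed no such gap, at 1.86 and 0.922 FPKM in labelled knockout libraries, against 1.96 and 1.26 FPKM in the controls. The 2 controls also differed widely in genes outside the hepatocyte list. In control replicates 1 and 2, Wif1 had 33.2 and 1.25 FPKM and Gkn3 had 108 and 2.90 FPKM. Ighv1-42 differed the other way, at 17.2 and 323 FPKM. Alb and Ttr were the hepatocyte markers listed, 2 of 7, with a summed level of 0.952 to 1.92 FPKM in labelled knockout libraries and 1.45 to 13.7 FPKM in the controls, and their part in the Cyp2e1 values was not tested.

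In family 4, Cyp4b1, Cyp4v3 and Cyp4f14 stood higher in the libraries labelled knockout and the other Cyp4f genes had log2 fold changes from -0.14 to 0.39. Cyp4b1, a P450 that hydroxylates fatty acids (chromosome 4, 115624728 to 115647705, minus strand), had 83.6 and 108 FPKM in labelled knockout libraries, against 28.7 and 40.9 FPKM in the controls (log2 fold change 1.45, SE 0.22, adjusted p = 0.075). Cyp4v3, the mouse counterpart of the fatty acid hydroxylase CYP4V2, measured 235 and 308 FPKM in labelled knockout libraries, against 128 and 90.9 FPKM in the controls (1.31, SE 0.22, adjusted p = 0.081). Both had groups that were clearly apart, with lowest ratios of 2.04 and 1.84.

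Cyp4f14, an omega-hydroxylase of leukotriene B4 and of vitamins E and K, was the most abundant P450 gene in every library. It stood at 644 and 715 FPKM in labelled knockout libraries, against 395 and 457 FPKM in the controls, a 1.59-fold ratio of means (log2 fold change 0.67, SE 0.14, adjusted p = 0.094). Cyp4f13 lies across a gap of 7.3 kb and had 34.6 and 34.0 FPKM in labelled knockout libraries, against 22.3 and 30.1 FPKM in the controls (0.39, 95% interval -0.02 to 0.80). Cyp4f16 measured 55.6 and 62.5 FPKM in labelled knockout libraries, against 53.2 and 63.0 FPKM in the controls, and the groups overlapped (0.03, 95% interval -0.31 to 0.36). Cyp4f40 was the only member below both controls, at 58.4 and 49.8 FPKM in labelled knockout libraries, against 59.3 and 59.9 FPKM in the controls; its log2 fold change of -0.14 (95% interval -0.44 to 0.15) turned to 0.03 after median-ratio scaling. These 4 genes share a stretch of chromosome 17, and their intervals leave room for modest differences in either direction for Cyp4f16 and Cyp4f40.

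Cyp4f18, the leukotriene B4 hydroxylase of mouse neutrophils, lies on chromosome 8 and was scarce, at 1.77 and 1.70 FPKM in labelled knockout libraries, against 2.37 and 1.22 FPKM in the controls. The groups overlapped and the log2 fold change was 0.00 (95% interval -0.59 to 0.59). Leukocyte markers were listed for 7 of 8 genes, with a summed level of 96.2 to 124 FPKM in labelled knockout libraries and 109.8 to 133 FPKM in the controls, and S100a8 was not among the listed genes.

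**Figure D2:**
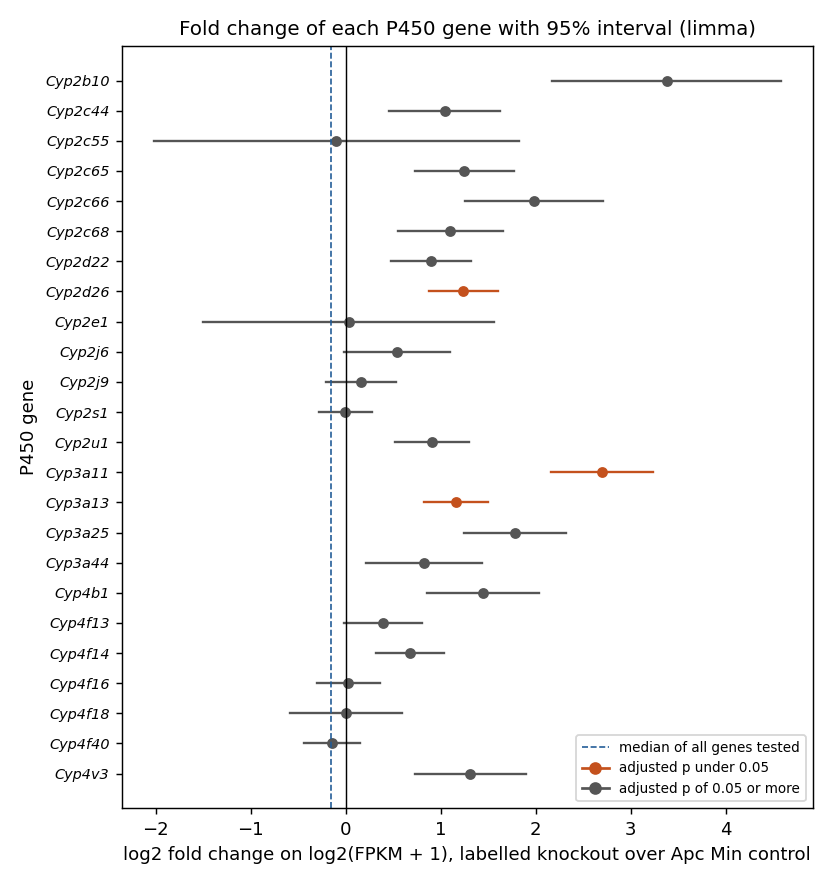
Log2 fold change on log2(FPKM + 1) of each of the 24 genes, labelled knockout over Apc Min control, with its 95% interval from limma. Coloured genes passed the adjusted threshold; 15 intervals lie wholly above 0 and 9 span 0, and the dashed line is the median of all genes tested at -0.15.

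The summed level of the 24 genes was 2052 and 2381 FPKM in labelled knockout libraries, against 1098 and 1104 FPKM in the controls, a 2.01-fold ratio of means. The sum without Cyp4f14 was 1408 and 1666 FPKM in labelled knockout libraries, against 702 and 647 FPKM in the controls. Family 3 took 29.6% and 30.1% of the sum in the libraries labelled knockout, against 21.0% and 19.7% in the controls, and family 4 took 54.2% and 53.7%, against 62.7% and 67.3%. Cyp4f14 alone made up 31.4% and 30.0% in the libraries labelled knockout, against 36.01% and 41.4% in the controls. By subfamily, the ratio of summed means was highest for Cyp2b (12.5, a single gene), then Cyp3a (2.95), Cyp4b (2.76), Cyp4v (2.48), Cyp2d (2.34), Cyp2c (2.09) and Cyp2u (2.00), and lower for Cyp2j (1.46), Cyp4f (1.45) and Cyp2e (0.832), with equal means in Cyp2s. FPKM is per length, so these levels can be compared between genes. The sums rest on few abundant genes and were not tested.

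**Figure D3:**
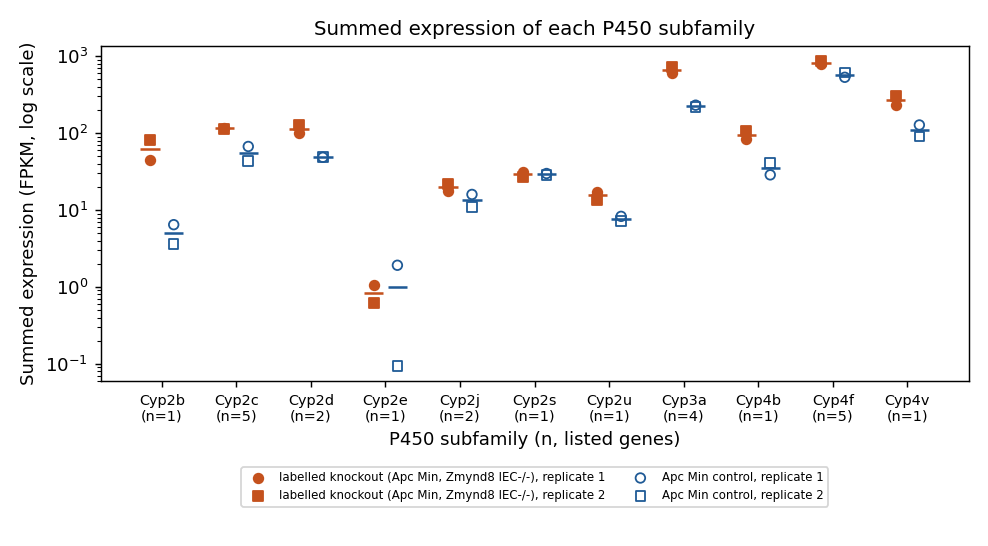
Summed FPKM of the listed genes of each subfamily on a log axis, with 1 point per library and a line at the mean of each group. Points of the 2 groups lie apart in Cyp2b, Cyp2c, Cyp2d, Cyp2j, Cyp2u, Cyp3a, Cyp4b, Cyp4f and Cyp4v and are mixed in Cyp2e and Cyp2s.

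In the authors' deposited table, 9 of the 24 members had a q-value under 0.05 with a positive fold change and 0 with a negative one, against 1.26% and 0.876% of all 13359 genes. They were Cyp3a11, Cyp3a13, Cyp4v3, Cyp4f14, Cyp3a25, Cyp2b10, Cyp4b1, Cyp2d26 and Cyp2c65, with q-values from 1.08e-24 for Cyp3a11 to 0.00670 for Cyp2c65 in the authors' deposited table. No source used here names the test behind them, and both sets of calls use the same 4 libraries. With voom on the recovered reads, Cyp3a25 joined the 3 genes that limma called, which made 4 of 24 members higher, against 0.95% of all genes.

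Receptors and factors that control P450 genes were measured for 20 of 20 genes of that list. Ppara alone was called higher and 0 were called lower, against 0.595% and 0.131% of all genes. The median log2 fold change was 0.00, or 0.16 relative to all genes. Ppara, which encodes PPAR alpha, stood at 9.82 and 10.5 FPKM in labelled knockout libraries, against 4.67 and 5.05 FPKM in the controls (log2 fold change 0.93, SE 0.11, limma adjusted p = 0.047). Nr1i3, which encodes CAR, had 13.6 and 20.2 FPKM in labelled knockout libraries, against 3.97 and 2.86 FPKM in the controls (2.01, SE 0.24, adjusted p = 0.057). Nr1i2, which encodes PXR, measured 51.2 and 59.7 FPKM in labelled knockout libraries, against 33.3 and 37.9 FPKM in the controls (0.62, adjusted p = 0.094). Hnf4a, an enterocyte and liver transcription factor gene, stood at 199 and 176 FPKM in labelled knockout libraries, against 219 and 268 FPKM in the controls (-0.37, adjusted p = 0.19). By sign the list held 10 positive and 10 negative fold changes, and 15 and 5 after median-ratio scaling. Most of all genes were negative before that scaling: Cyp4f18, at 0.00, ranked 3652 from the top of the 12948 genes tested. At an unadjusted limma p under 0.05, 6 of the 20 were higher and 0 lower, against 7.49% and 19.1% of all genes.

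Other targets of these receptors outside the P450 genes included genes that rose. Of 13 measured PXR and CAR targets, 3 were called higher and 0 lower, against 0.595% and 0.131% of all genes. At an unadjusted limma p under 0.05, 6 were higher and 0 lower, against 7.49% and 19.1% of all genes. The list median was 0.38, which is 0.54 above that of all genes. The 3 called were Abcc2, Gstm3 (1.73, limma adjusted p = 0.041) and Gsta1 (1.15, adjusted p = 0.042). Abcc2, an apical efflux pump gene, stood at 99.5 and 97.6 FPKM in labelled knockout libraries, against 43.9 and 41.2 FPKM in the controls (1.19, adjusted p = 0.041). Of 15 measured PPAR alpha targets, 1 was called higher, Angptl4, and 0 lower, against 0.595% and 0.131% of all genes. Angptl4 stood at 32.7 and 35.0 FPKM in labelled knockout libraries, against 9.26 and 9.06 FPKM in the controls (1.78, adjusted p = 0.037). At an unadjusted limma p under 0.05, 9 of the 15 were higher and 0 lower, against 7.49% and 19.1% of all genes. The median of these targets was 0.50, or 0.65 relative to all genes. Of 15 clock output genes, 1 was called higher, Dbp (0.86, limma adjusted p = 0.046), and 0 lower, against 0.595% and 0.131% of all genes. Dbp is a transcription factor of the daily cycle known to drive P450 genes in mouse liver. At an unadjusted limma p under 0.05, 9 clock genes were higher and 0 lower, against 7.49% and 19.1% of all genes. The median of the clock genes was 0.43, or 0.59 relative to all genes. The time of day of sampling is not given in the labels.

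Genes that serve P450 enzymes did not pass the test. Among 5 redox partners 0 were called, against 0.595% of all genes called higher and 0.131% lower. At an unadjusted limma p under 0.05, 4 were higher and 0 lower, against 7.49% and 19.1% of all genes. Their median was 0.58, or 0.73 relative to all genes. Por, the reductase that passes electrons to these enzymes, had 80.6 and 102 FPKM in labelled knockout libraries, against 61.7 and 45.0 FPKM in the controls (0.77, adjusted p = 0.12). Cyb5r3 and Cyb5a, of the cytochrome b5 branch, gave 0.92 (adjusted p = 0.076) and 0.58 (adjusted p = 0.088). Among 12 genes of heme synthesis and breakdown 0 were called by limma (1 had an unadjusted p under 0.05, lower), around a median of -0.12, which was 0.03 after median-ratio scaling. Ephx2, which hydrolyses the epoxides of fatty acids that P450 enzymes form, measured 72.9 and 117 FPKM in labelled knockout libraries, against 36.6 and 26.9 FPKM in the controls (1.53, adjusted p = 0.098), and Ephx1, the microsomal hydrolase, gave -0.17.

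The 7 listed P450 genes of other families were mixed. Of the 6 tested, 0 were called by limma, against 0.595% of all genes called higher and 0.131% lower. By sign 2 were positive and 4 negative, where most of all genes were negative. The median was -0.42, or -0.27 relative to all genes. At an unadjusted limma p under 0.05, 2 were higher and 2 lower, against 7.49% and 19.1% of all genes. Cyp1a1, the aryl hydrocarbon receptor target, stood at 1.76 and 1.87 FPKM in labelled knockout libraries, against 0.297 and 0.294 FPKM in the controls (1.12, adjusted p = 0.051). Cyp27a1, a mitochondrial sterol hydroxylase, gave 1.14 (adjusted p = 0.11), and Cyp51, the lanosterol demethylase of cholesterol synthesis, gave -1.02 (adjusted p = 0.14). The difference between these and the 24 members was not tested.

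**Figure D4:**
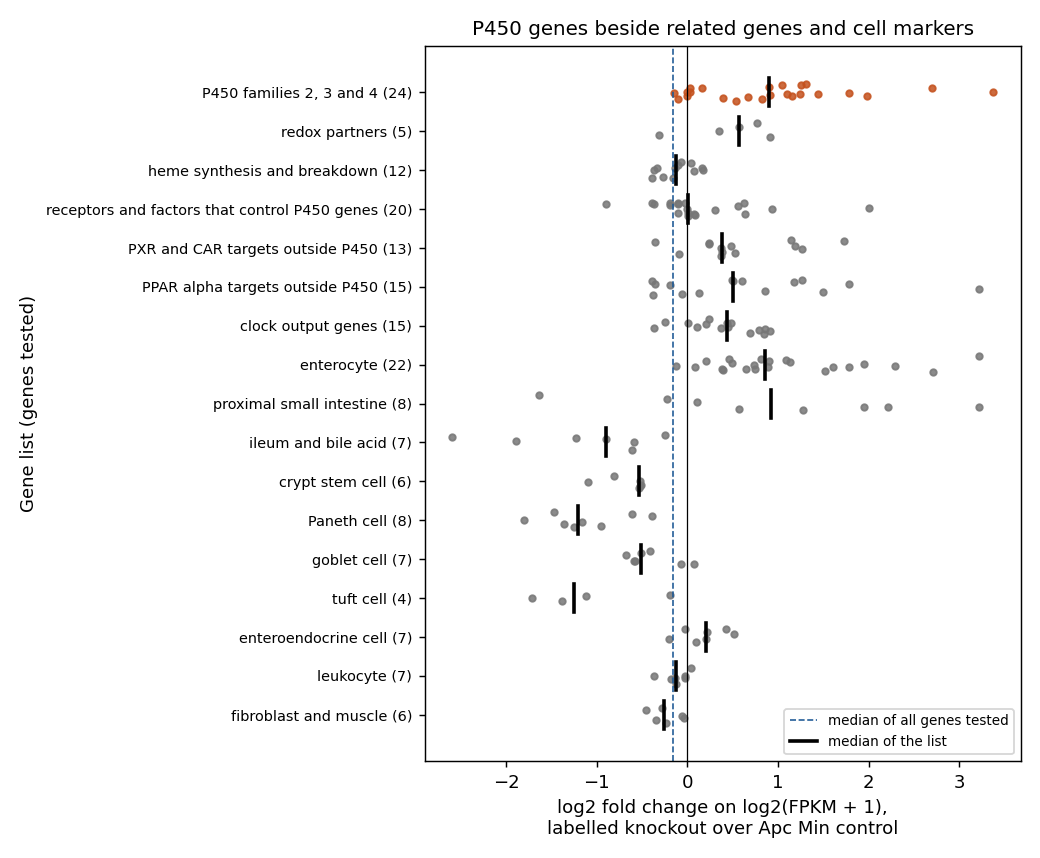
Log2 fold change on log2(FPKM + 1) of each gene (points) in the P450 families (top row) and in lists of related genes and cell markers, labelled knockout over Apc Min control. Black bars are list medians; that of the P450 genes was 0.90 and that of the enterocyte markers 0.86, while ileal, stem cell, Paneth, goblet and tuft cell medians lay below 0.

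Enterocyte markers stood higher beside the P450 genes. All 22 were listed, with a summed level of 26849 to 31366 FPKM in labelled knockout libraries and 16610 to 18827 FPKM in the controls. Of these, 3 were called higher (Slc2a2, Mme and Treh) and 0 lower, against 0.595% and 0.131% of all genes. In 20 both libraries labelled knockout lay above both controls, against 14.9% of all genes tested, and the median log2 fold change was 0.86. Proximal small intestine markers were listed for 9 of 10 genes, and of the 8 tested 0 were called, 6 were positive and 2 negative, with log2 fold changes from -1.64 for Slc40a1 to 3.22 for Fabp1. Fabp1, a fatty acid binding protein gene at 609 and 1107 FPKM in labelled knockout libraries, against 128 and 59.8 FPKM in the controls, made up much of their sum in labelled knockout libraries and also stands in the enterocyte and PPAR alpha target lists. The proximal sums were 1028 to 1758 FPKM in labelled knockout libraries and 200.5 to 344 FPKM in the controls. Ileal markers were listed for 7 of 8 genes, with sums of 563 to 3074 FPKM in labelled knockout libraries and 2153 to 8918 FPKM in the controls. All 7 had negative fold changes and 0 were called. Fabp6 made up much of the sum except in replicate 2 of the libraries labelled knockout. Its groups overlapped, at 2250 and 134 FPKM in labelled knockout libraries, against 1459 and 7606 FPKM in the controls. Paneth cell markers went the other way, with sums of 4867 to 7418 FPKM in labelled knockout libraries and 9035 to 11240 FPKM in the controls. So did tuft cell markers, with sums of 2.34 to 2.99 against 9.16 to 9.82 FPKM. Called lower were 2 of 8 Paneth and 2 of 4 tuft cell markers, against 0.131% of all genes. The sums of the 6 crypt stem cell markers were 153 to 156 FPKM in labelled knockout libraries and 230.4 to 236 FPKM in the controls (0 called). Olfm4 made up most of these sums. All 6 lay below both controls, against 48.5% of all genes tested. At an unadjusted limma p under 0.05, 4 were lower, against 19.1% of all genes. Lgr5 had 2.74 and 3.19 FPKM in labelled knockout libraries, against 14.8 and 3.48 FPKM in the controls. Goblet cell sums were 5698 to 6521 FPKM in labelled knockout libraries and 6624 to 8251 FPKM in the controls, enteroendocrine sums 121 to 126 and 88.8 to 143 FPKM, and fibroblast and muscle sums 217 to 247 and 243 to 315 FPKM. None of the 7 pancreatic acinar markers was among the listed genes. The part of cell makeup, gut region and time of day in the P450 values was not tested.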

How the data were processed

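RNA-seq values of 4 libraries were used; 4 ChIP-seq libraries of the human cell line HCT116 were not analysed here. The submitters' processing notes name HISAT2 and the build mm10, without version, and the labels' protocols name an NEBNext Ultra kit; no source used here gives the counting tool, the annotation or the use of strand. The authors deposited 1 expression value per gene and library, together with group means and, per the file headers, a p-value, a q-value and a log2 fold change for the comparison. No header names the unit. The deposited values were read as FPKM, since they come out as whole reads over a gene length and a library total, within 0.002 reads, for 13359 of 13359 genes. These reads are the smallest that could be fitted, so true reads may be a multiple of them. On data simulated from the fitted reads and lengths, 96.2% of 600 genes came back exactly. Since it starts from the smallest lengths, the simulation cannot show how often true reads are a multiple. Of 13527 entries, 168 repeated another and were used once (32 entries for the 24 members). Number of unused per-sample columns: 0.

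The 12948 genes that reached 1 FPKM in 2 or more libraries entered limma (version 3.58.1, R 4.3.3) as log2(FPKM + 1), with trend and robust moderation, genotype as the only term and Benjamini-Hochberg adjustment over all genes at 0.05; the fit had 2 residual and a median of 3.02 prior degrees of freedom. Fold changes on this scale understate the change of low genes. Members and lists were chosen with earlier results of these data known. All members were named, and from each other list up to 3 genes of smallest p (4 for other P450 families) with Nr1i2, Nr1i3, Ppara, Hnf4a and Por. Alb and Ttr were named because they are the hepatocyte markers the table lists. Slc40a1 and Fabp6 were named after their values were seen. Protein sequences were not used here. There were 13 alternatives.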

Additional observations from a re-analysis of the deposited data

How the results depend on the processing

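The count of P450 members called higher was 3, and the calls depended on the settings. It was 3 with a pseudocount of 0.1 (69 of all genes called higher), 1 with a pseudocount of 5 (55) and 1 after quantile normalization (61), Cyp3a11 in both of these, 2 after median-ratio scaling (Cyp3a11 and Cyp3a25; 60 of all genes) and 4 with voom (123). Genes called lower numbered 17 in the fit reported, 16, 9, 5, 4 and 27 in these settings. It was 0 without a filter on low values, 0 with a filter at a mean of 5 FPKM, 0 without trend and robust moderation and 0 with the replicate block, settings in which all genes gave 1, 2, 11 and 0 calls. With 1 library left out it ran from 0 to 9, where 9 came without control replicate 2 (230 of all genes higher and 386 lower, against 77 and 17 with it), which leaves that group with a lone library assumed to vary like the other group. The labels link same-numbered libraries by the number alone. Their deviations from the group means had a correlation of 0.045 over genes, which cannot show whether they shared a litter, day or batch. Under the block the smallest limma adjusted p among the 3 called members was 0.15. The median of the members was 0.90, 0.67 with a pseudocount of 5 and 1.08 with voom, and from 0.82 to 1.01 with 1 library left out.

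Signs turned only in members near 0. Cyp2c55 (-0.10) gave 0.064 with median-ratio scaling, 0.034 with quantile normalization and from -0.86 to 0.67 with a library left out, with 0.20 without control replicate 1. Cyp2s1 (0.00) gave 0.17, 0.078 and, with a library left out, from -0.11 to 0.10 (0.02 without control replicate 1). Cyp4f40 (-0.14) gave 0.032 after median-ratio scaling. With a pseudocount of 5, Cyp2e1 gave -0.025 and Cyp4f18 -0.0070. With a library left out, Cyp2e1 ranged from -0.68 to 0.20, Cyp4f18 from -0.30 to 0.30 (-0.02 without replicate 1 of the libraries labelled knockout), and Cyp4f16 from -0.095 to 0.14 (-0.06 without replicate 2 of the libraries labelled knockout). The cause was not tested.

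List medians moved too. That of heme genes (-0.12) was -0.073 with a pseudocount of 5, -0.088 when genes under a mean of 5 FPKM were dropped, 0.032 with median-ratio scaling, 0.0092 with quantile normalization and from -0.15 to 0.0025 with a library left out. That of receptors (0.00) was 0.17 with median-ratio scaling. That of PXR and CAR targets (0.38) was 0.56 with median-ratio scaling and from 0.31 to 0.75 with a library left out. That of PPAR alpha targets (0.50) was 0.37 with a pseudocount of 5, 0.67 with median-ratio scaling, 0.66 with quantile normalization and from 0.40 to 0.64 with a library left out.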
